A study of Danio rerio with 4 samples.

Results

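Collagen genes were taken as all genes whose symbol starts with "col" followed directly by a digit and that had at least 20 UMIs over the 4 libraries. A UMI is a unique molecular identifier, which counts 1 captured mRNA molecule. Of 28357 genes, 57 carried such a symbol and 56 reached the minimum. *col8a1a* had 4 UMIs and was left out, and the members nearest above the minimum were *col10a1a* with 26, *col8a1b* with 33, *col9a1a* with 34 and *col2a1a* with 40 UMIs. Of the 56, 54 encode collagen chains. The other two, *col4a3bpa* and *col4a3bpb*, take their symbol from a protein that binds a type IV chain and are known as ceramide transfer protein genes, so they entered no sum or count of chains below.

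Collagens are secreted proteins whose chains wind into triple helices. Fibril-forming types such as I and V bundle into the fibers that bear load in connective tissue, type IV spreads as the sheet-like network inside basement membranes, type VI makes the beaded filaments between fibers and cells, and the fibril-associated types (FACIT) sit on the fiber surface. In the kidney, fibroblast-like interstitial cells are the usual source of fibrils, and tubule cells, endothelial cells and podocytes contribute to the basement membranes on which they rest.

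The study sequenced single cells from kidneys of adult zebrafish of the AB line at 4 days post injury (dpi). All fish had received gentamicin, an aminoglycoside that damages renal tubules, as an intraperitoneal injection of 20 µl at 2.7 µg/µl, and tissue was dissociated with trypsin. All 4 libraries belong to this injured group, so the comparisons below are between cell types and not with uninjured kidneys. How fish were divided among the libraries is not given in the sources used here, so every SD and p-value measures the spread between libraries, which may be technical.

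The libraries held 9048, 9831, 6308 and 5821 cells, 31008 in all, with a median of 4358 to 9954 UMIs per cell. Libraries 3 and 4 stood apart from libraries 1 and 2, with medians of 9954 and 9883 UMIs per cell against 4644 and 4358. A total of 336 cells carried a barcode that another library also held, with 108 barcodes shared by libraries 1 and 2 and 46 shared by libraries 3 and 4. Cells were clustered without the collagen and matrix genes, and clusters were named from markers that hold no collagen. The classes follow the study's abbreviations and are written with "-like": renal interstitial cells (RIC, 257 cells), vascular endothelial cells (VEC, 606), renal stem cells (RSC, 127), proximal and distal tubular epithelial cells (PTEC, 394; DTEC, 1124), and 9 blood or secretory classes, while 8054 cells stayed unnamed. All 15 RIC markers were detected in RIC-like cells, where they summed to 5785 to 10549 CPM (UMIs per 1000000 UMIs of the class in a library), against 150 to 641 in VEC-like cells and 12.9 on average in neutrophil-like cells. Of 8 smooth muscle or pericyte markers, 7 were also detected in RIC-like cells, at 886 to 2204 CPM, with *desmb* at 0. RIC-like cells also carried erythroid markers at 971 to 14283 and neutrophil markers at 312 to 14003 CPM over the 4 libraries, and the part of these in the collagen levels was not tested. Of the 127 RSC-like cells, 35, all from libraries 1 and 2, carried at least 2 UMIs of ovarian follicle markers, so RSC-like results that these follicle-like cells change are given without them as well.

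RIC-like cells had the most collagen mRNA. The 54 chains together came to 10903, 9950, 7328 and 6315 CPM in RIC-like cells of libraries 1 to 4, a mean of 8624 ± 2158 (SD, n = 4 libraries, as for every mean below). The lowest of these values lay above the highest of any other class. VEC-like cells followed with 616, 698, 2401 and 2171 CPM and RSC-like cells with 872, 870, 499 and 596. These 2 ranges overlapped, so their order was within the spread between libraries, and without follicle-like cells the RSC-like mean was 463 ± 105 instead of 709 ± 191. PTEC-like cells averaged 229 ± 74.1 and DTEC-like cells 200 ± 21.1, again with overlapping libraries. Every RSC-like library stood above every PTEC-like and DTEC-like library. Thrombocyte-like cells averaged 149 ± 59.9, and the other blood classes lay between 53.9 and 79.6. With all cells counted, mucin-secreting KMSC-like cells were lowest at 40.8 ± 17.4. The erythroid-like mean of 69.6 rested on 1 cell. Without that cell it was 34.8 ± 12.8, below the KMSC-like mean, with overlapping libraries. Neutrophil-like cells, which are not known to build fibrils, had 54.7 ± 26.6 CPM and are set beside shares of cells below. The RIC-like mean was 4517 CPM when only cells with at least 1000 UMIs were clustered, a class that then held more cells.

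**Figure D1:**
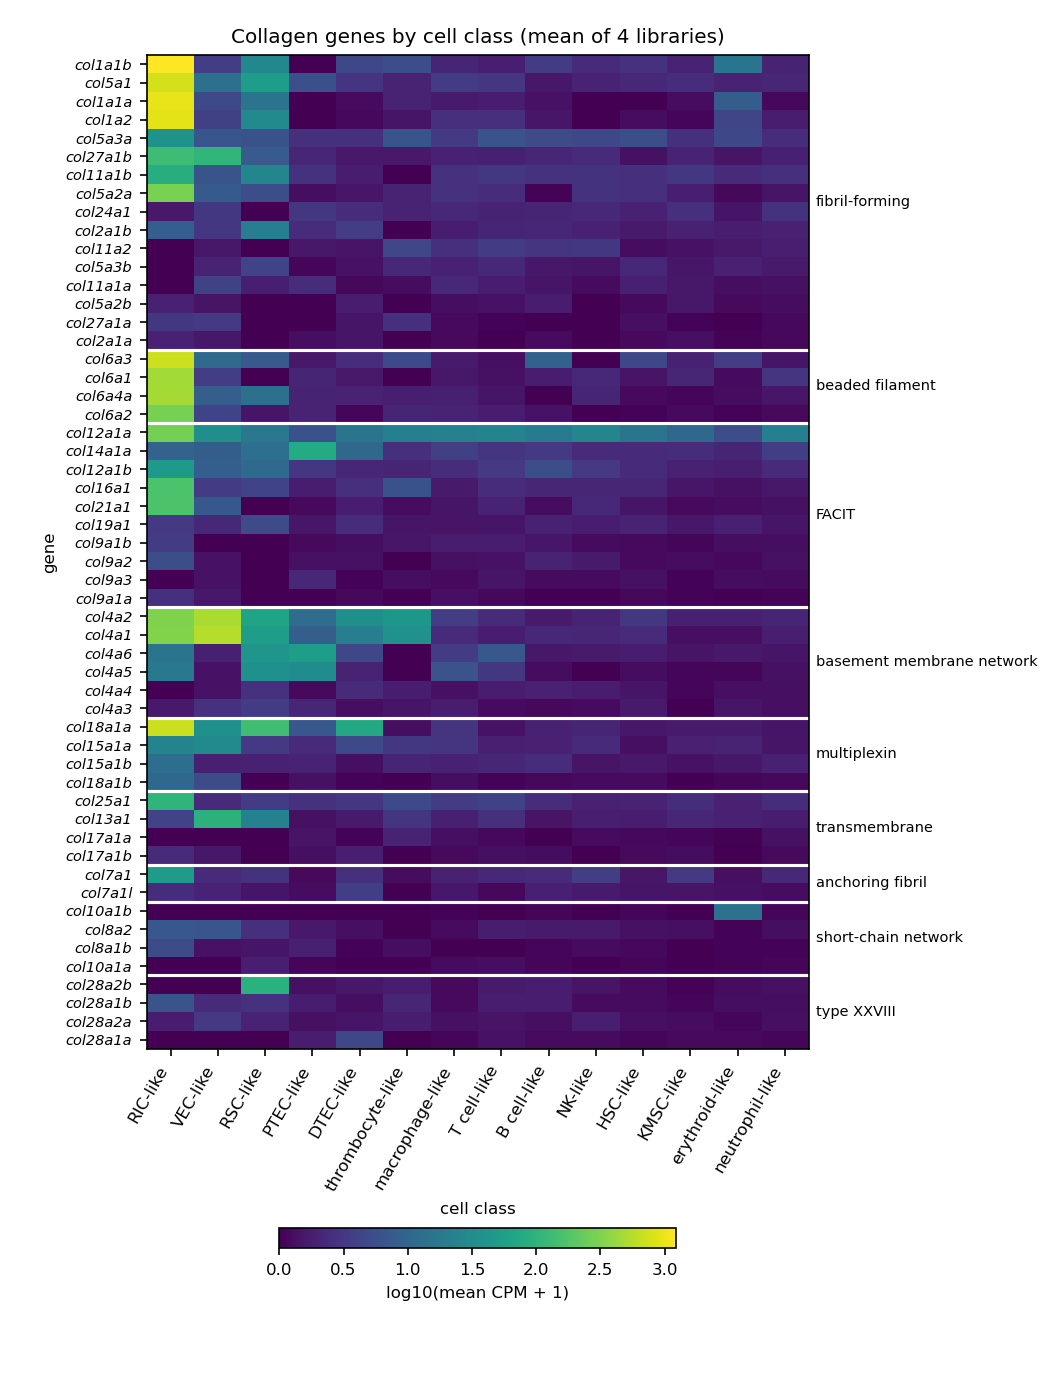
Mean level of each of the 54 collagen chain genes (down the page, sorted by structural group) in 14 cell classes (across), as log10 of the mean CPM over 4 libraries plus 1. The RIC-like column is bright through the fibril-forming and beaded filament genes, the VEC-like column is brightest at *col4a1* and *col4a2*, and *col12a1a* is above 0 in every class.

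The kind of collagen differed between the classes. In RIC-like cells fibril-forming chains made up 51.0% of all collagen UMIs, the beaded filament chains of type VI 22.3%, and multiplexin, basement membrane network and FACIT chains between 8.17% and 8.25% each. In VEC-like cells the network chains of type IV took 71.9% and fibril-forming chains 10.5%. PTEC-like cells also had network chains first, at 45.0%, with FACIT chains at 39.2%. DTEC-like cells had 34.8% network and 29.7% multiplexin chains. RSC-like cells had 30.4% network, 23.4% fibril-forming and 19.1% multiplexin chains, but 41.1% fibril-forming and 19.8% network once follicle-like cells were removed. In neutrophil-like cells FACIT chains took 50.3%, most of them *col12a1a* with 1756 UMIs, followed by *col14a1a* with 233.

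**Figure D2:**
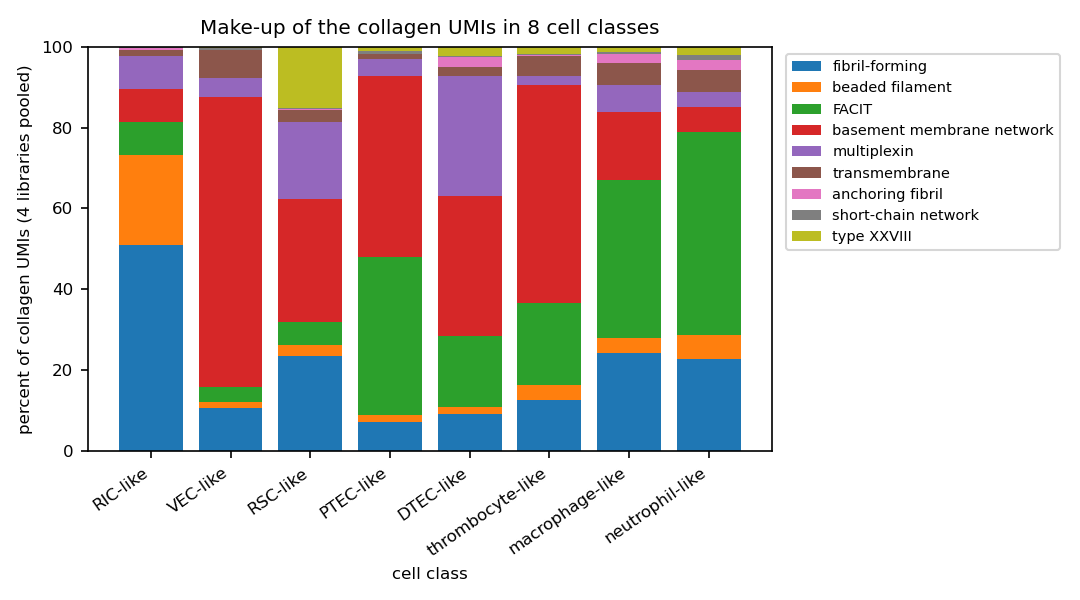
Share of collagen UMIs (percent, stacked bars) that each structural group of chains took in 8 cell classes, pooled over 4 libraries. Fibril-forming chains filled 51.0% of the RIC-like bar, and the type IV network filled 71.9% of the VEC-like bar.

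By collagen number, RIC-like cells held 3119 CPM of type I, 1920 of type VI, 1112 of type V, 697 of type XVIII, 663 of type IV and 319 of type XII. No other number passed 200 there: XXI averaged 170, XVI 164, XXVII 137, XXV 105, XI 82.3 and VII 51.6. Type IV was the leading number in VEC-like cells, at 1053 CPM. It also led in PTEC-like cells (105) and thrombocyte-like cells (78.4). In RSC-like cells it averaged 193, but 203 of its 303 UMIs there were in follicle-like cells. Without them type IV averaged 88.8 ± 24.9 and type I 77.4 ± 19.004 in RSC-like cells, with overlapping libraries. DTEC-like cells had XVIII first, at 71.9, and IV next, at 60.1. Type I, the main fiber of tendon, bone and scar, was counted at 0 UMIs in the 394 PTEC-like cells, which at this depth bounds the cells with a captured type I UMI at 0.761% and not the cells that express it.

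Of the 54 chains, 30 had their highest mean level in RIC-like cells, 8 in RSC-like, 7 in VEC-like, 4 in PTEC-like, 2 in DTEC-like, 2 in thrombocyte-like and 1 in erythroid-like cells. The erythroid-like chain was *col10a1b*, with 235 of its 250 UMIs in 1 cell and a mean of 0.0592 CPM without that cell. The libraries of the highest class lay above those of all other classes for 17 of the 30 RIC-like chains and 1 of the 4 PTEC-like chains, and for 0 of the 8 RSC-like and 0 of the 7 VEC-like chains. The same shares over all genes were not counted, so these counts do not show whether collagens differ from other genes in this. Without follicle-like cells RSC-like cells were highest for 6 chains, no longer for *col4a5* and *col5a3b*. Of these 6, *col2a1b* had 25 UMIs in those cells. The others rested on few UMIs: *col19a1* had 5, *col4a3* 4, *col4a4* 3, *col28a2b* 3 and *col10a1a* 1. The 30 comprised 10 of 16 fibril-forming chains, 4 of 4 beaded filament chains, 7 of 10 FACIT chains, 3 of 4 multiplexins and 0 of 6 type IV chains. These counts take in chains at very low levels. In RIC-like cells the fibril-forming chains *col2a1a* and *col5a2b* averaged 0.906 CPM each. The FACIT chains *col9a1a* and *col9a1b* averaged 1.62 and 2.53 there, and *col17a1b*, also among the 30, averaged 1.42. Levels of different genes are set side by side here without a length correction, since the protocol counted 3′ ends.

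Type I collagen is a trimer of the chains encoded in zebrafish by *col1a1a*, *col1a1b* and *col1a2*. *col1a1b* had 2189, 1555, 592 and 590 CPM in RIC-like cells of libraries 1 to 4, against 4.48, 4.65, 1.63 and 0 in VEC-like cells. *col1a1a* had 1535, 1330, 483 and 507 in RIC-like cells, against 4.48, 9.30, 1.63 and 0 in VEC-like cells. *col1a2* had 1383, 1258, 629 and 426 in RIC-like cells, against 6.72, 4.65, 0 and 0 in VEC-like cells. For all 3 genes each RIC-like library was far above each VEC-like one, and within RIC-like cells libraries 1 and 2 were higher than libraries 3 and 4. The log2 fold changes of RIC-like over VEC-like cells were 8.80 ± 0.75 (SE) for *col1a1b*, 8.01 ± 0.78 for *col1a1a* and 8.41 ± 0.87 for *col1a2*, all with adjusted p of at most 0.00057 (edgeR's quasi-likelihood test on sums per library, Benjamini-Hochberg over all genes).

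**Figure D3:**
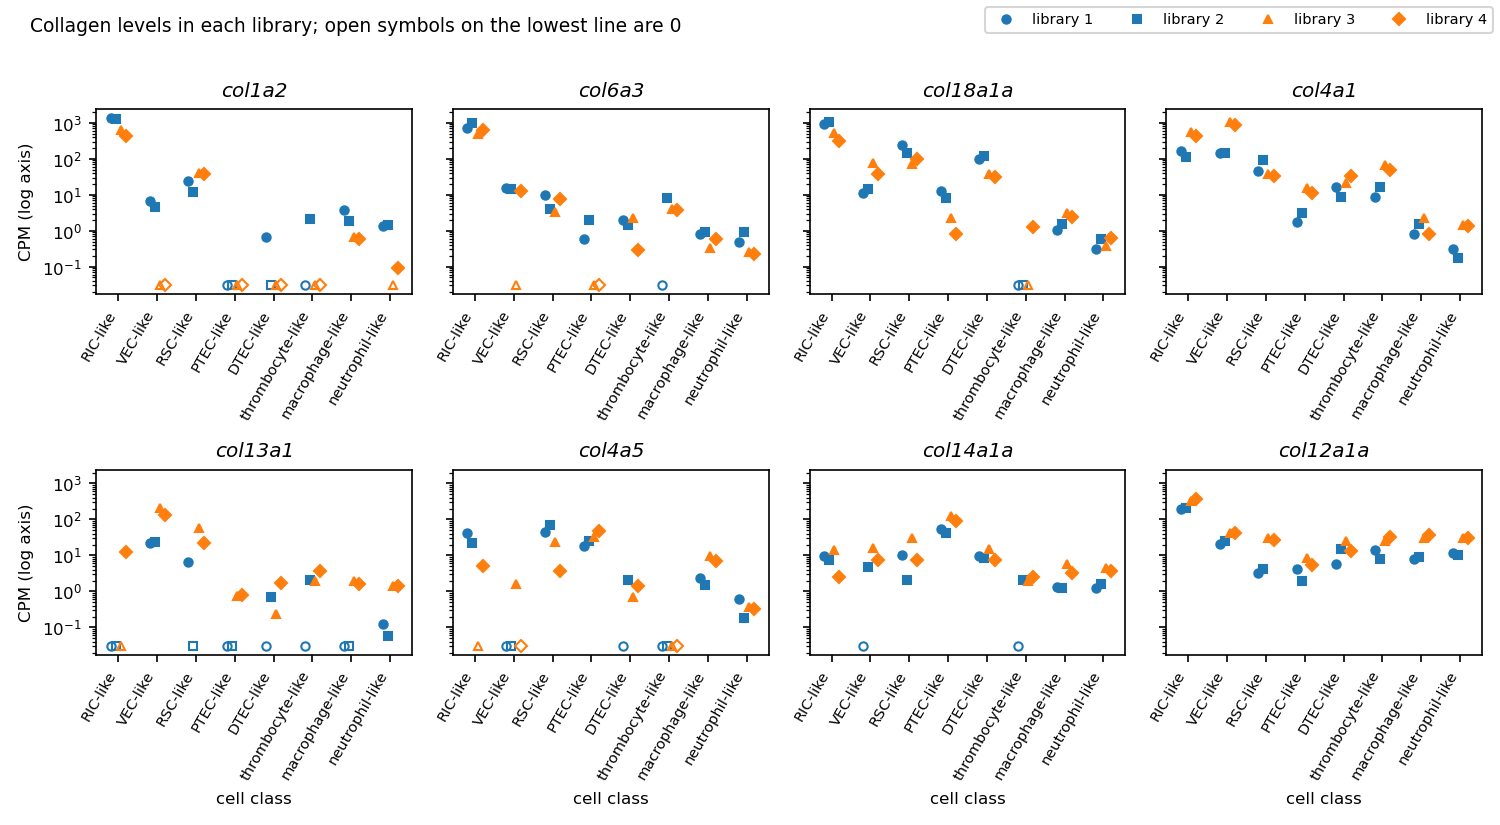
CPM (log axis) of 8 collagen genes in each of 4 libraries (points) for 8 cell classes, with open symbols on the lowest line for a count of 0. The *col1a2* and *col6a3* panels show RIC-like points at 426 or more, the *col4a1* panel shows VEC-like libraries at 140 to 1058, and the *col14a1a* panel shows PTEC-like libraries at 43.0 to 124.

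The other fibril-forming chains of RIC-like cells were those of types V, XI and XXVII. Type V sits in the core of type I fibrils and limits their diameter. Its chain gene *col5a1* had 891, 950, 709 and 582 CPM in RIC-like cells, against 11.2, 6.98, 17.96 and 14.6 in VEC-like cells (log2 fold change 5.95 ± 0.45, adjusted p = 0.00038, edgeR). *col5a2a* had 276, 312, 272 and 305 in RIC-like cells, against 8.96, 6.98, 8.17 and 1.82 in VEC-like cells (5.59 ± 0.45, adjusted p = 0.00038, edgeR). Both genes were separate between the classes in every library, and *col5a2a* was the steadiest of the abundant chains across RIC-like libraries. *col5a3a* was lower and uneven, with a mean of 37.2 ± 42.5 in RIC-like cells and 101 in library 4 alone. *col11a1b*, a chain of type XI, which starts thin fibrils in cartilage, had 63.4, 68.9, 85.8 and 111 in RIC-like cells, against 0, 2.33, 6.53 and 12.8 in VEC-like cells (3.89 ± 0.76, adjusted p = 0.0080, edgeR). *col27a1b*, from a fibrillar type known from cartilage and notochord, was the exception among the tested fibril-forming chains. It had 85.7, 61.6, 283 and 111 in RIC-like cells, against 33.6, 62.8, 173 and 157 in VEC-like cells, with overlapping libraries and a log2 fold change of 0.50 ± 0.75 (adjusted p = 0.77, edgeR).

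Type VI collagen links cells to the surrounding fibers, and 4 of its chain genes were members. *col6a3* had 723, 968, 498 and 640 CPM in RIC-like cells, against 15.7, 14.0, 0 and 12.8 in VEC-like cells. *col6a1* had 581, 511, 377 and 348 in RIC-like cells, against 4.48, 4.65, 1.63 and 0 in VEC-like cells. *col6a4a* had 593, 555, 452 and 290 in RIC-like cells, against 8.96, 16.3, 3.27 and 1.82 in VEC-like cells. *col6a2* was the lowest of the 4, at 343, 294, 326 and 182 in RIC-like cells, against 2.24, 2.33, 6.53 and 1.82 in VEC-like cells, and none of the 4 genes overlapped between the classes. Their log2 fold changes were 6.17 ± 0.76, 7.45 ± 0.59, 6.12 ± 0.57 and 6.38 ± 0.53 in that order (adjusted p at most 0.00094, edgeR).

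FACIT and multiplexin chains were also higher in RIC-like cells where they were tested, apart from *col15a1a* and *col12a1b*. *col16a1*, a FACIT chain, had 216, 167, 160 and 113 CPM in RIC-like cells, against 0, 4.65, 1.63 and 3.65 in VEC-like cells (log2 fold change 5.98 ± 0.57, adjusted p = 0.00057, edgeR). *col21a1*, a FACIT chain known from vessel walls, had 124, 79.7, 217 and 260 in RIC-like cells, against 2.24, 0, 13.1 and 9.11 in VEC-like cells (4.80 ± 0.89, adjusted p = 0.0063, edgeR). Both genes were separate between the classes, and *col21a1* was higher in libraries 3 and 4 in either class. *col12a1a*, a FACIT chain of tendon and of healing tissue, had 194, 207, 317 and 378 in RIC-like cells, against 20.2, 25.6, 40.8 and 41.9 in VEC-like cells (3.22 ± 0.52, adjusted p = 0.0033, edgeR). Of its 379 UMIs in RIC-like cells, 97 came from 1 cell. *col18a1a* encodes a basement membrane proteoglycan core whose C-terminal fragment is endostatin. It had 914, 1019, 506 and 308 in RIC-like cells, against 11.2, 14.0, 75.1 and 38.3 in VEC-like cells (4.22 ± 0.72, adjusted p = 0.0044, edgeR), and the ranges were apart although library 4 came nearest.

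Outside those groups, *col25a1* and *col7a1* were also high in RIC-like cells. *col25a1*, a membrane-spanning collagen known from motor nerve ingrowth in mice, had 44.4, 54.4, 192 and 129 CPM in RIC-like cells, against 2.24, 0, 3.27 and 0 in VEC-like cells. With 147 UMIs against 3, the ratio was 74.6 with an exact counting interval of 25.04 to 366. *col7a1*, the anchoring fibril chain of skin, was not tested in this comparison and had 63 UMIs in RIC-like cells against 3 in VEC-like cells, a ratio of 32.0 (10.5 to 159).

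Of 54 chains, 20 had enough counts to be tested between RIC-like and VEC-like cells, 15 were higher in RIC-like cells and 0 were lower, where 6.80% of all 5881 genes tested were higher and 7.45% were lower. In each comparison without a chain called lower, 0 were also lower at an unadjusted p under 0.05 in edgeR and 0 in DESeq2. The median log2 fold change of the 20 was 5.77, beside 0.02 over all genes. A chain could enter the test on the counts of 1 class alone, such as *col1a1b* with 1560 UMIs against 5. The 34 chains not tested held 262 UMIs in RIC-like and 326 in VEC-like cells, and 221 of the latter were of *col13a1*. Counts and medians in this and the later comparisons therefore cover the tested chains only. The 15 were 6 of 7 tested fibril-forming chains, 4 of 4 beaded filament chains, 3 of 4 FACIT chains, 1 of 2 multiplexins and 1 of 1 transmembrane chain. *col15a1a*, not called here, was lower in RIC-like cells with genes scaled over all libraries (-1.28, adjusted p = 0.017) and with cells of at least 1000 UMIs (-1.08, adjusted p = 0.048, edgeR). With the library as a block *col12a1b* was also called: it had 31.7, 47.1, 68.6 and 32.8 CPM in RIC-like cells, against 2.24, 0, 14.7 and 12.8 in VEC-like cells (2.56 ± 0.79, adjusted p = 0.063 without and 0.0038 with the block, edgeR).

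**Figure D4:**
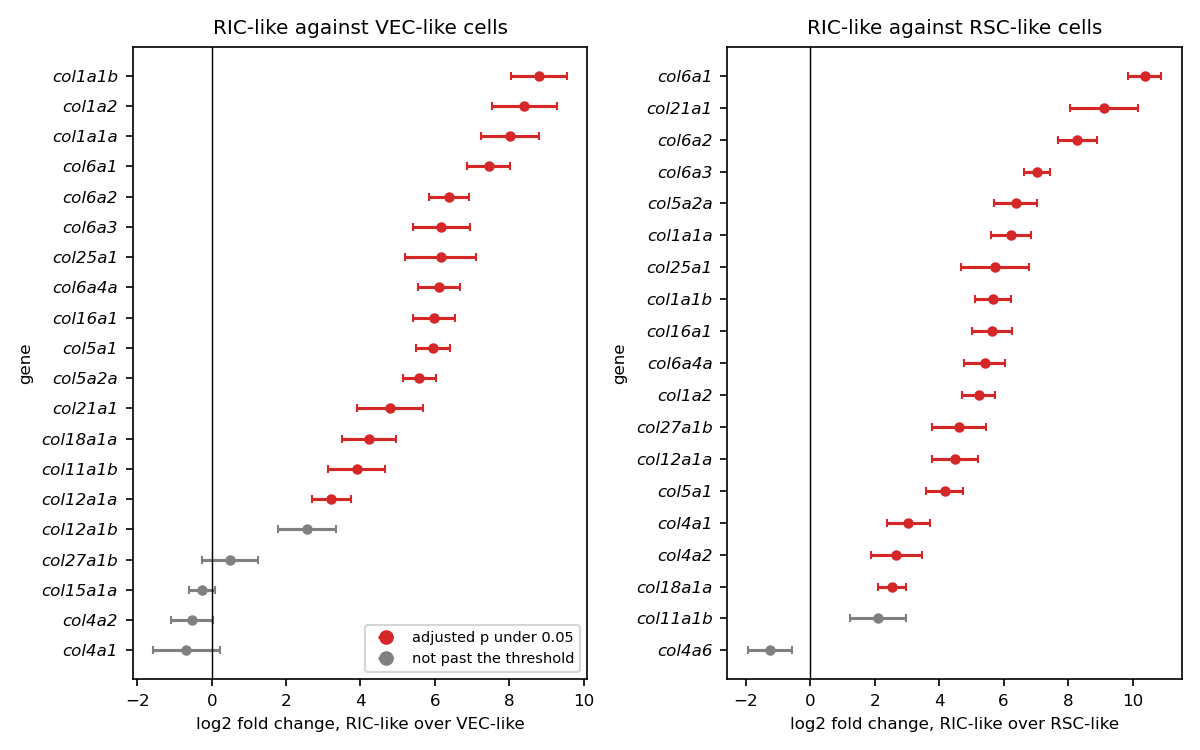
Log2 fold change (points) with its SE (bars) of each collagen chain tested between RIC-like and VEC-like cells (20 chains) and between RIC-like and RSC-like cells (19 chains), with red points for adjusted p under 0.05. The 15 red points of the RIC-like against VEC-like panel lie between 3.22 and 8.80, and *col4a1*, *col4a2* and *col15a1a* there lie below 0 without passing the test.

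The 2 major type IV chains did not separate stromal from endothelial cells. *col4a1* had 168, 112, 549 and 436 CPM in RIC-like cells, against 148, 140, 1058 and 878 in VEC-like cells. *col4a2* had 286, 181, 469 and 323 in RIC-like cells, against 255, 302, 673 and 742 in VEC-like cells. In libraries 3 and 4 VEC-like cells were higher for both genes, and in libraries 1 and 2 the classes crossed. The log2 fold changes were -0.68 ± 0.89 for *col4a1* (adjusted p = 0.72) and -0.53 ± 0.57 for *col4a2* (adjusted p = 0.65, edgeR), which leaves room for differences in either direction. With the library as a block they were -0.44 for *col4a1* (adjusted p = 0.20) and -0.46 for *col4a2* (adjusted p = 0.19, edgeR). VEC-like cells also carried podocyte markers at a sum of 639 to 1959 CPM, and the part of these in the type IV levels was not tested. Within libraries 3 and 4 alone *col4a1* was at -0.80 ± 0.27 (adjusted p = 0.051, edgeR) and within libraries 1 and 2 alone at 0.02 ± 0.26. Their products join in 1 trimer, and *col4a1* made up 51.0% of the pair's UMIs in RIC-like cells (exact interval 47.6 to 54.3) and 54.2% in VEC-like cells. By library that share was 37.1%, 38.3%, 53.9% and 57.5% in RIC-like cells and 36.7%, 31.6%, 61.1% and 54.2% in VEC-like cells, so it followed the library pair in both classes.

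At the level of single cells, most RIC-like cells held several collagens. They had a median of 8 different chains and 22 collagen UMIs per cell, 252 of 257 had at least 1, and the richest cell held 480. *col6a3* was detected in 70.8% of RIC-like cells (exact 95% interval 64.8 to 76.3), *col1a2* in 66.1%, *col1a1b* in 59.1%, *col1a1a* in 54.9% and *col6a1* in 53.3%. Neutrophil-like cells, deeper at a median of 6852 UMIs against 3494 in RIC-like cells, had a *col6a3* UMI in 0.337% and a *col1a2* UMI in 0.511% of cells. Thinned to 1000 UMIs per cell, with 46 shallower RIC-like and 152 shallower neutrophil-like cells left out, *col1a2* was seen in 47.4% of RIC-like and 0.0995% of neutrophil-like cells. *col18a1a* was found in 44.7%, *col4a2* in 37.7%, *col16a1* in 35.8%, *col12a1a* in 28.4%, *col21a1* in 24.5% and *col25a1* in 15.2% of RIC-like cells. The intervals cover counting error only.

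Chains of 1 protein were often found together, and so were chains of different proteins. Of 141 RIC-like cells with a *col1a1a* UMI, 87.2% also had *col1a2*, against 40.5% of the 116 cells without it. Among cells with *col6a1*, 82.5% had *col6a3*, against 57.5% of those without. The same was seen for *col4a1*, which was in 63.9% of RIC-like cells with *col4a2*, against 17.5% of those without. Across proteins, 70.0% of RIC-like cells with *col1a2* had *col5a1*, against 25.3% of those without, and 57.1% had *col18a1a*, against 20.7%. For *col6a3* the shares with and without *col1a2* were 79.4% and 54.0%, and for *col4a1* they were 39.4% and 26.4%. Cells with the first gene were deeper in each case, for example a median of 4209 UMIs with *col1a1a* against 1702 without, and the part of depth in these shares was not tested.

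Stromal cells were also set against the RSC-like cells, the nephron progenitors that the study describes. The study divided its RSC cluster further, with *col1a1a* and *col1a1b* higher in a part that it proposes to be mesenchymal. The RSC-like cells here were not divided, so their levels average over any such parts. Some alternative clusterings named no RSC-like cluster. Of 19 chains tested, 17 were called, all higher in RIC-like cells, where 15.8% of all 4638 genes tested were called in either direction and 10.8% were higher. Some of the tested chains entered on RIC-like counts alone. The 35 chains not tested held 332 UMIs in RIC-like and 322 in RSC-like cells. The median log2 fold change of the 19 was 5.42, beside 0.005 over all genes, and it is the same with the genes at 0 in RSC-like cells put at their lower bounds. *col6a1* had 594 UMIs in RIC-like cells and 0 in RSC-like cells, which makes it at least 201-fold higher on a floor of 3 counts over the class. *col21a1* had 240 UMIs in RIC-like cells and 0 in RSC-like cells, at least 81.2-fold higher. *col6a2* had 375 UMIs in RIC-like cells against 1 in RSC-like cells, a ratio of 381 with a counting interval of 67.9 to 15074. *col6a3* had 923 against 8 (log2 fold change 7.04 ± 0.40, adjusted p = 5.9e-05, edgeR), so each of the 4 beaded filament genes had at most 18 UMIs in RSC-like cells. *col5a2a* (6.37 ± 0.66), *col1a1a* (6.23 ± 0.61) and *col1a1b* (5.67 ± 0.57) came next among the genes with more than 3 UMIs in RSC-like cells, each with adjusted p of at most 0.00038 (edgeR).

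The type IV and XVIII chains were higher in RIC-like cells here too, by less. *col4a1* had 168, 112, 549 and 436 CPM in RIC-like cells, against 46.6, 89.5, 36.8 and 33.7 in RSC-like cells (log2 fold change 3.04 ± 0.67, adjusted p = 0.013, edgeR). *col4a2* had 286, 181, 469 and 323 in RIC-like cells, against 66.6, 157, 6.70 and 22.5 in RSC-like cells (2.68 ± 0.78, adjusted p = 0.044, edgeR). *col18a1a* had 914, 1019, 506 and 308 in RIC-like cells, against 233, 140, 70.3 and 101 in RSC-like cells (2.54 ± 0.43, adjusted p = 0.0032, edgeR). All 3 genes were apart in every library, and without follicle-like cells the differences were 4.06 in *col4a1*, 4.75 ± 0.74 in *col4a2* and 3.49 in *col18a1a*. The type IV calls depended on single libraries: *col4a1* did not pass the test without library 3 (2.47, adjusted p = 0.072) or library 4 (2.81, adjusted p = 0.072, edgeR), and *col4a2* did not without library 1 (2.73, adjusted p = 0.13), library 3 (1.98, adjusted p = 0.10) or library 4 (2.48, adjusted p = 0.13, edgeR). In libraries 1 and 2 alone they were at 1.08 (adjusted p = 0.070) and 1.105 (adjusted p = 0.076, edgeR). *col11a1b* and *col4a6* did not pass the test. *col11a1b* had 78.7 CPM in RSC-like cells of library 4, within the RIC-like range of 63.4 to 111, and was called with the library as a block (2.09 ± 0.87, adjusted p = 0.13 without and 0.011 with it, edgeR). *col4a6* was at -1.24 ± 0.69 (adjusted p = 0.24, edgeR).

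The collagens of RSC-like cells were partly those of the follicle-like cells among them. *col18a1a* was their most abundant chain, at 233, 140, 70.3 and 101 CPM, of which follicle-like cells held 109 of 187 UMIs. Without them its mean was still the highest, with 43.03, 66.9, 70.3 and 101, and it was detected in 44.9% of the 127 cells and in 32.6% of the 92 cells left without follicle-like ones. *col4a5*, a minor type IV chain whose human counterpart is mutated in Alport syndrome, had 43.3, 69.1, 23.5 and 3.75 in RSC-like cells and *col4a6*, its neighbor in the same trimer, 33.29, 56.9, 33.5 and 33.7. Follicle-like cells held 37 of the 55 *col4a5* and 28 of the 57 *col4a6* UMIs, and without them the means were 16.8 ± 9.41 instead of 34.9 for *col4a5* and 26.4 ± 8.36 instead of 39.4 for *col4a6*. *col2a1b*, a chain of the cartilage collagen II, had 20.0, 12.2, 16.7 and 29.97, and RSC-like cells were its highest class in all 4 libraries. *col5a1* was detected in 23.6% and *col1a2* in 14.96% of RSC-like cells. RSC-like cells also carried RIC markers at 164 to 423 CPM, and the part of these in their collagen levels was not tested. *col28a2b* was the chain most dependent on the follicle-like cells: it had 183, 185, 0 and 0 in all RSC-like cells, and 143 of its 146 UMIs there were in the 35 follicle-like cells, 82.9% of which had it. Without them its mean was 2.39 instead of 92.0 CPM. RIC-like cells had 0 *col28a2b* UMIs, and the 3 left in RSC-like cells are too few for a fold.

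Set against DTEC-like cells, RSC-like cells had 4 higher and 0 lower of 8 chains tested, where 16.3% of all 9033 genes tested were higher and 21.3% were lower. *col1a2* had 35 UMIs in RSC-like cells and 1 in DTEC-like cells, a ratio of 278 with a counting interval of 46.7 to 11282. *col5a1* had 23.3, 16.3, 67.0 and 101 CPM in RSC-like cells, against 0.653, 0.701, 5.51 and 1.16 in DTEC-like cells (log2 fold change 3.59 ± 0.83, adjusted p = 0.0070, edgeR). *col4a6* had 33.29, 56.9, 33.5 and 33.7 in RSC-like cells, against 3.27, 6.31, 2.98 and 1.45 in DTEC-like cells (2.98 ± 0.39, adjusted p = 0.00028, edgeR). *col2a1b* was higher as well, at 12.2 to 29.97 in RSC-like cells against 0.689 to 4.204 in DTEC-like cells (2.32 ± 0.49, adjusted p = 0.0044, edgeR), and none of these genes overlapped. All 4 were also called without follicle-like cells, with *col4a6* at 2.38. RIC markers were at 164 to 423 CPM in RSC-like cells, against 7.5 to 91.8 in DTEC-like cells. The part of these in the 4 differences was not tested. *col18a1a* (0.47 ± 0.39), *col4a1* (0.57 ± 0.57) and *col4a2* (0.18 ± 0.73) did not pass the test. The 2 type IV chains ran in opposite directions in the library pairs. *col4a2* had 66.6, 157, 6.70 and 22.5 CPM in RSC-like cells, against 25.5, 21.02, 39.9 and 48.6 in DTEC-like cells, and was higher in RSC-like cells of libraries 1 and 2 alone (2.05, adjusted p = 0.0020, edgeR) and lower in those of libraries 3 and 4 alone (-2.66, adjusted p = 0.0044, edgeR). *col4a1* was higher in libraries 1 and 2 alone (2.24, adjusted p = 0.0021, edgeR) and at -0.69 in libraries 3 and 4 alone (adjusted p = 0.25, edgeR). The follicle-like cells all came from libraries 1 and 2, and without them *col4a2* was lower in RSC-like cells, at -1.93 ± 0.71 (adjusted p = 0.049, edgeR), and *col4a1* was at -0.46 (adjusted p = 0.61, edgeR).

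The 2 tubule classes carried different basement membrane collagens. In PTEC-like cells the minor type IV chains led: *col4a6* had 32.0, 56.0, 46.0 and 80.7 CPM in PTEC-like cells, against 3.27, 6.31, 2.98 and 1.45 in DTEC-like cells (log2 fold change 3.99 ± 0.41, adjusted p = 7.5e-05, edgeR). *col4a5* had 18.6, 25.01, 31.7 and 47.5 in PTEC-like cells, against 0, 2.102, 0.689 and 1.45 in DTEC-like cells (4.68 ± 0.59, adjusted p = 0.00024, edgeR). The major chains ran the other way. *col4a2* had 5.81, 12.01, 14.3 and 14.2 in PTEC-like cells, against 25.5, 21.02, 39.9 and 48.6 in DTEC-like cells (-1.75 ± 0.51, adjusted p = 0.022, edgeR). *col4a1* had 1.74, 3.001, 15.1 and 11.1 in PTEC-like cells, against 16.3, 8.41, 21.8 and 34.1 in DTEC-like cells, and was called with the library as a block (-1.59 ± 0.75, adjusted p = 0.13 without and 0.0054 with it, edgeR). The *col4a2* difference did not pass the test without library 3 (-1.73, adjusted p = 0.082, edgeR) or without library 4 (-1.48, adjusted p = 0.081, edgeR).

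*col14a1a*, a FACIT chain that binds fibrils, was highest in PTEC-like cells, with 54.0, 43.0, 124 and 91.0 CPM in PTEC-like cells, against 9.80, 8.41, 14.7 and 7.51 in DTEC-like cells (log2 fold change 2.82 ± 0.46, adjusted p = 0.0011, edgeR). It was detected in 31.0% of 394 PTEC-like cells (exact interval 26.4 to 35.8), at a median of 9663 UMIs per cell, against 1.96% of neutrophil-like cells at 6852. *col18a1a* marked the distal side: it had 12.8, 8.004, 2.26 and 0.791 in PTEC-like cells, against 97.3, 122, 36.7 and 31.5 in DTEC-like cells (-3.45 ± 0.60, adjusted p = 0.0015, edgeR). Both genes were apart in every library. Of the 592 *col18a1a* UMIs in DTEC-like cells, 587 lay in the larger of the 2 DTEC-like clusters, where the mean was 79.6 ± 52.2, against 7.48 in the smaller. DTEC-like cells with a UMI of *slc12a3*, the thiazide-sensitive cotransporter of the distal tubule, had 76.3 ± 58.8 CPM and those without it 71.1 ± 43.2. With predicted doublets removed and cells clustered again, *col18a1a* had 10.0, 61.0, 30.9 and 3.42 in PTEC-like cells, against 85.1, 116, 33.298 and 40.8 in DTEC-like cells, and no longer passed the test (-1.28, adjusted p = 0.15, edgeR).

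Of 7 chains tested between these tubule classes, 3 were higher and 2 lower in PTEC-like cells, where 18.4% of all 10093 genes tested were higher and 19.9% were lower. With the library as a block *col4a1* and *col12a1a* were also called lower. Cells of the PTEC-like class carried DTEC markers at 3138 CPM, beside 12458 in DTEC-like cells, and PTEC markers were at 17205 in PTEC-like and 182 in DTEC-like cells. The part of that in these fold changes was not tested.

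Endothelial cells were compared with neutrophil-like cells to set their collagens against a blood class. *col4a1* had 148, 140, 1058 and 878 CPM in VEC-like cells, against 0.312, 0.177, 1.43 and 1.31 in neutrophil-like cells (log2 fold change 9.04 ± 1.09, adjusted p = 0.00015, edgeR). *col4a2* had 255, 302, 673 and 742 in VEC-like cells, against 0.375, 0.766, 1.18 and 1.94 in neutrophil-like cells (8.45 ± 0.67, adjusted p = 1.3e-05, edgeR). Both were higher in every VEC-like library. *col13a1*, a membrane collagen of cell adhesion sites, had 22.4, 23.3, 207 and 135 in VEC-like cells, against 0.125, 0.0589, 1.39 and 1.45 in neutrophil-like cells (6.62 ± 1.11, adjusted p = 0.0012, edgeR). *col27a1b* had 33.6, 62.8, 173 and 157 in VEC-like cells, against 0.375, 0.648, 1.26 and 1.22 in neutrophil-like cells (6.52 ± 0.66, adjusted p = 5.6e-05, edgeR). *col15a1a*, a multiplexin at endothelial and muscle basement membranes, had 22.4, 34.9, 27.8 and 27.3 in VEC-like cells, against 0.50, 0.530, 0.253 and 0.633 in neutrophil-like cells (5.40 ± 0.41, adjusted p = 1.1e-05, edgeR). Its VEC-like libraries did not sort by library pair, unlike those of the 4 genes before it. *col18a1a* was higher by 5.77 ± 0.69, *col6a2* by 3.47 ± 0.66, *col6a4a* by 3.28 ± 0.70, *col5a2a* by 3.23 ± 0.62 and *col5a1* by 3.08 ± 0.65 (adjusted p at most 0.0049, edgeR).

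In all, 10 of 23 chains tested were higher in VEC-like than in neutrophil-like cells and 0 were lower, where 18.3% of all 14922 genes tested were higher and 19.7% were lower. With the library as a block *col12a1b* was an 11th (2.17, adjusted p = 0.11 without and 0.011 with it, edgeR). The 3 type I genes were not among the 10: *col1a2* and *col1a1b* did not pass the test, and *col1a1a* was not tested. *col1a2* had 6.72, 4.65, 0 and 0 CPM in VEC-like cells, against 1.38, 1.41, 0 and 0.0904 in neutrophil-like cells (log2 fold change 1.30 ± 1.62, adjusted p = 0.57, edgeR). VEC-like cells carried neutrophil markers at 4248 to 15025, RIC markers at 150 to 641 and podocyte markers at 639 to 1959 CPM, against 5.07 to 6.12 CPM of podocyte markers in neutrophil-like cells, and the part of these in the VEC-like collagen levels was not tested. *col13a1* had 221 UMIs in VEC-like and 5 in RIC-like cells and did not pass the expression filter over 4 libraries. In libraries 3 and 4 alone it was tested, and RIC-like cells were lower (-4.48 ± 0.67, adjusted p = 0.00083, edgeR).

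VEC-like cells were shallower than RIC-like cells and had a median of 1 chain per cell. *col4a2* was detected in 44.1% of them, *col4a1* in 36.3%, *col27a1b* in 17.2% and *col13a1* in 10.2%, against 0.794%, 0.631%, 0.794% and 0.740% of neutrophil-like cells, at median depths of 2355.5 and 6852 UMIs. Of VEC-like cells with *col4a2*, 61.0% had *col4a1*, against 16.8% of those without. *col13a1* and *col27a1b* were not found together more often: 17.7% of 62 cells with *col13a1* had *col27a1b*, against 17.1% of the others. Each was found more often with *col4a1*, which was in 80.6% of cells with *col13a1*, against 31.25% of those without. It was in 60.6% of cells with *col27a1b*, against 31.3% of those without. Cells with the first gene were deeper in each pair, and the part of depth was not tested.

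The library pairs stood apart in the collagens of RIC-like and VEC-like cells, and in those of other classes as well. Of 21 chains with enough UMIs in RIC-like cells, 9 were higher in both libraries 1 and 2 than in either of 3 and 4, 7 were higher in both 3 and 4, and 5 were mixed. The type I genes were on the first side, with libraries 3 and 4 at 0.316 (*col1a1b*), 0.345 (*col1a1a*) and 0.400 (*col1a2*) of the level in libraries 1 and 2. *col18a1a* was with them at 0.421. On the other side, *col4a1* was 3.51 times, *col25a1* 3.24 times, *col27a1b* 2.68 times and *col21a1* 2.34 times as high in libraries 3 and 4. In VEC-like cells 6 of 7 chains were higher in both libraries 3 and 4, from 1.81 times for *col12a1a* to 6.74 times for *col4a1* and 7.49 times for *col13a1*, and *col15a1a* was mixed. In neutrophil-like cells 16 chains were higher in both libraries 3 and 4, 2 in both 1 and 2, and 2 were mixed. In macrophage-like cells 6 were higher in both 3 and 4 and 1 was mixed. In RSC-like cells 5 were higher in both 1 and 2, 1 in both 3 and 4, and 1 was mixed. The share of all genes that sorted by library pair was not counted, so these counts do not set collagens apart from other genes. Depth and the counted gene lists differ between the pairs, and their part in these ratios was not tested.

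**Figure D5:**
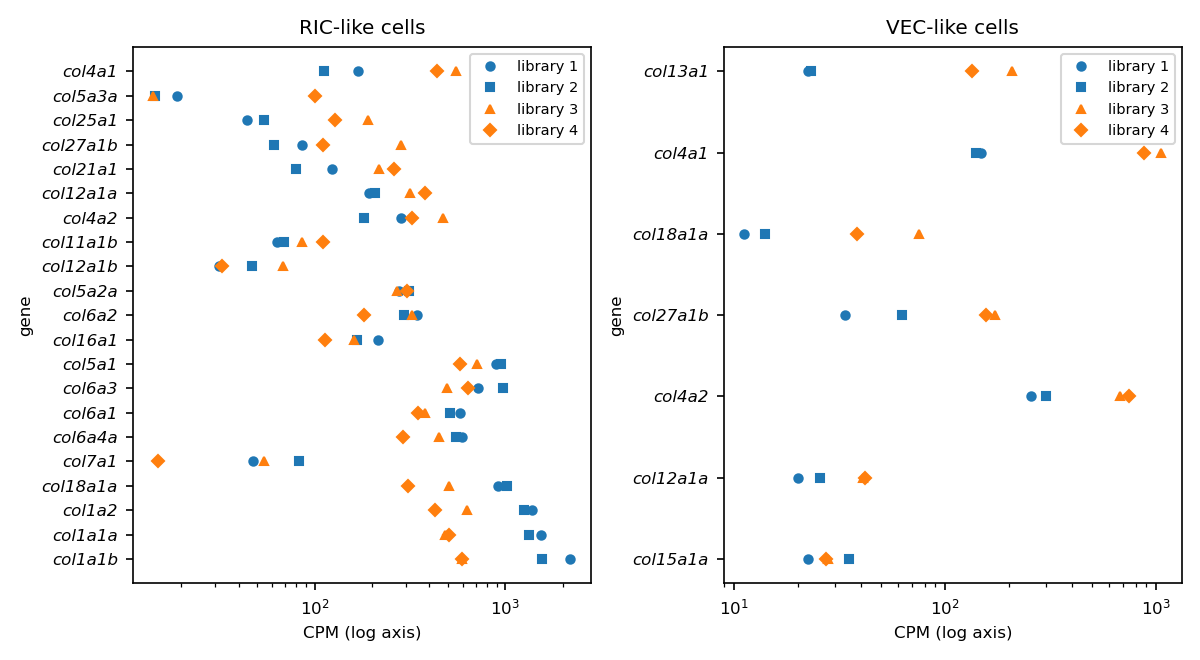
CPM (log axis) of 21 collagen chains in RIC-like cells and 7 in VEC-like cells, with 1 point per library and the library pairs in different colors. Type I genes lie higher in libraries 1 and 2 of the RIC-like panel, and 6 of the 7 VEC-like chains lie higher in libraries 3 and 4.

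Among blood classes, thrombocyte-like cells had the highest mean of collagen mRNA, with libraries at 92.9 to 209 CPM. These overlapped with libraries of other blood classes, such as T cell-like cells at 47.9 to 122 and macrophage-like cells at 44.5 to 110. *col4a2* stood at 37.8, 26.6, 58.0 and 45.8 CPM in thrombocyte-like cells and *col4a1* at 8.71, 16.4, 67.0 and 48.3. Both were above the levels of neutrophil-like cells in every library, and *col4a2* was detected in 15.6% of 450 thrombocyte-like cells, against 0.794% of neutrophil-like cells, at median depths of 4328.5 and 6852 UMIs. No test was planned for this class.

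*col12a1a* was the most widespread chain. It had 5094 UMIs in all, of which 7.44% lay in RIC-like cells, and every class had some. Its mean was 274 ± 89.0 CPM in RIC-like cells, 32.1 in VEC-like cells, 21.5 ± 15.1 in macrophage-like cells and 20.7 ± 11.3 in neutrophil-like cells. PTEC-like cells, at 4.98, and erythroid-like cells, at 4.37, were lowest. In neutrophil-like cells it had 11.8, 10.1, 30.5 and 30.4 in libraries 1 to 4, detected in 10.997% of cells. *col12a1b*, its paralog, was the lesser of the pair, of which *col12a1a* held 93.7% in neutrophil-like cells and 86.3% in RIC-like cells.

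Collagen mRNA has been described in macrophages of injured zebrafish hearts, and macrophage-like cells were set against neutrophil-like cells here. Of 20 chains tested, 4 were called, all higher in macrophage-like cells, where 36.7% of all 15421 genes tested were called in either direction and 19.7% were higher, so the share of chains higher was about that of all genes. *col4a5* differed most, with 2.42, 1.51, 9.76 and 6.97 CPM in macrophage-like cells, against 0.625, 0.177, 0.379 and 0.316 in neutrophil-like cells (log2 fold change 3.59 ± 0.68, adjusted p = 0.0031, edgeR). *col18a1a* was at 1.07 to 3.14 in macrophage-like cells against 0.312 to 0.633 in neutrophil-like cells (1.91 ± 0.46, adjusted p = 0.011, edgeR). *col15a1a* (1.80 ± 0.45, adjusted p = 0.014) and *col5a2a* (1.65 ± 0.52, adjusted p = 0.038, edgeR) were the others, at no more than 3.03 CPM in any library. No library overlapped in these genes, and *col4a5* was detected in 4.41% of 1725 macrophage-like cells, against 0.272% of neutrophil-like cells, at median depths of 8313 and 6852 UMIs. Without library 3, *col18a1a* (1.52, adjusted p = 0.064) and *col5a2a* (1.67, adjusted p = 0.088, edgeR) were no longer called, and 2 chains remained above the threshold. *col5a2a* was also lost without library 1 (adjusted p = 0.11) or library 2 (adjusted p = 0.079, edgeR). With the library as a block *col4a6*, *col4a2* and *col5a1* were also called. Of the type I genes, *col1a2* and *col1a1b* did not pass the test and *col1a1a* was not tested. *col1a2* had 3.76, 1.82, 0.662 and 0.598 in macrophage-like cells, against 1.38, 1.41, 0 and 0.0904 in neutrophil-like cells (0.97 ± 1.26, adjusted p = 0.63, edgeR).

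In erythroid-like cells, 1 cell decided the collagen level. Their sum was 161, 26.0, 45.1 and 46.3 CPM in libraries 1 to 4, and 607 of the library 1 UMIs came from a cell with 6631 UMIs in all. That cell held 235 of the 250 *col10a1b* UMIs in the series, along with 190 of *col1a1b*, 114 of *col1a1a* and 55 of *col1a2*. *col10a1b* encodes a short-chain collagen known from hypertrophic cartilage and bone-forming cells. Without the cell the erythroid-like mean was 34.8 ± 12.8 instead of 69.6 ± 61.6.

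The remaining chains were low in every class. The 30 chains highest in RIC-like cells included *col8a2* at 5.84, *col28a1b* at 5.18, *col9a2* at 4.60 and *col8a1b* at 4.22 CPM there. *col15a1b* averaged 12.04 and *col18a1b* 10.2, and both had a paralog that was higher in at least 1 class. *col18a1a* took 98.5% of its pair in RIC-like cells, 99.8% in DTEC-like cells and 100% in RSC-like cells. *col15a1a* took 96.6% of its pair in VEC-like cells, 61.7% in RIC-like and 31.1% in neutrophil-like cells. *col24a1*, *col17a1a*, *col17a1b*, *col19a1*, *col4a3*, *col4a4*, *col9a3*, *col10a1a*, *col5a2b*, *col5a3b*, *col2a1a*, *col9a1a*, *col9a1b*, *col11a1a*, *col11a2*, *col27a1a*, *col28a2a*, *col28a1a* and *col7a1l* reached at most 4.13 CPM in any class. *col4a3* and *col4a4*, whose mammalian counterparts join *col4a5* in the glomerular basement membrane, had 138 and 139 UMIs in all 31008 cells. *col28a1a* had 39.0% of its 82 UMIs in DTEC-like cells.

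The genes that fold, trim and anchor collagens were counted on 6 lists. As with the chains, a list gene could enter a test on the counts of 1 class alone. List counts and medians therefore cover the tested genes only. Collagen folding and hydroxylation needs prolyl and lysyl hydroxylases and the chaperone of *serpinh1b*. Between RIC-like and VEC-like cells 6 of 15 tested genes of that list were higher and 0 lower (median log2 fold change 1.03, beside 0.02 over all genes, of which 6.80% were higher and 7.45% lower), among them *p3h2* (6.62), *plod2* (5.97), *serpinh1b* (3.71) and *p3h3* (2.27). Without library 2 or library 3, 3 were called, and 10 with the library as a block. Of 10 tested genes for propeptide removal and cross-linking, 4 were higher and 1 lower, with the lysyl oxidase genes *loxa* (6.72) and *loxl2b* (5.08) and the procollagen C-proteinase enhancer *pcolcea* (4.60) higher and *tll1* (-3.48) lower. With the block *loxl1* was also lower (-3.39, adjusted p = 7.1e-05) and *adamts2* also higher (1.70, adjusted p = 0.0041, edgeR). Both tested fibril-associated proteoglycans, *dcn* (8.26) and *bgnb* (3.95), were higher. Of 9 basement membrane partners 5 were higher, including *sparc* (7.06), *lamc3* (5.31) and *nid1a* (4.12), and *hspg2* (-1.95) was lower, while 3 of the 9 were called without library 2 or library 4, and 9 with the block (*lama4*, *lamc1* and *agrn* also higher). Of 6 receptors the collagen uptake receptor *mrc2* (6.18) was higher, and 2 were called with the block. Of 9 proteases and inhibitors *mmp14a* (7.83) and *mmp2* (2.25) were higher, and *ctsk* was lower with the block (-1.01, adjusted p = 0.0090, edgeR). The values in parentheses here and below are log2 fold changes of genes called by edgeR.

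Between RIC-like and RSC-like cells the list for propeptide removal and cross-linking had the most calls, with 7 of 8 tested genes higher (median 4.14, beside 0.005 over all genes, of which 10.8% were higher). The data held 20 genes of that list, and some of the 8 tested entered on RIC-like counts. For example, *adamts2* had 155 UMIs in RIC-like cells against 1 in RSC-like cells, and *pcolcea* had 273 against 4. *adamts2*, the procollagen N-proteinase, was higher by 6.93, *pcolcea* by 6.17 and *tgm2b* by 4.24, and *loxa* had 0 UMIs in RSC-like cells. Both proteoglycans were higher (*bgnb* 5.98, *dcn* 4.87). Of 11 folding genes 3 were higher (*p3h2* 3.50, *plod2* 3.20, *serpinh1b* 2.37), 1 without library 2 and 0 without library 3. Of 8 basement membrane partners 2 were higher (*lama4* 2.26, *agrn* 1.82), and 1 without library 2 or 3. Of 4 receptors 3 were higher (*mrc2* 5.84, *itga1* 2.83, *itgb1a* 1.84), and of 7 proteases and inhibitors 3 were higher (*timp2b* 3.13, *mmp14a* 2.52, *mmp14b* 1.13), 1 without library 1 or 2 and 5 without follicle-like cells (*mmp2* and *timp2a* also). Of the tested list genes 0 were called lower by edgeR without the block, with 1 folding gene and 1 basement membrane partner lower at an unadjusted p under 0.05. With the block *plod1a* was called lower in RIC-like cells (-1.02, adjusted p = 0.080 without and 0.0495 with it, edgeR).

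RSC-like cells had 7 of 13 folding genes higher and 1 lower than DTEC-like cells, led by *serpinh1b* (5.05) and *plod2* (4.79), where 16.3% of all genes were higher and 21.3% lower, but 3 to 4 called genes without library 1, 2 or 3. Of 9 basement membrane partners 4 were higher (*lamc3* 4.55, *lamb1a* 2.84) and 2 lower (*lamb2l* -3.57, *lama5* -1.10). Of 10 proteases and inhibitors 5 were higher (*mmp2* 5.79) and 2 lower (*ctsk* -1.51). The shares of basement membrane partners and of proteases and inhibitors that were lower are about that of all genes. Of 3 receptors 1 was higher (*itgb1a* 1.91) and 1 lower (*ddr1* -1.40), and 1 was called without library 1 or 3. Of 3 cross-linking genes 1 was higher (*loxl3b* 3.16), and 2 with the block or without follicle-like cells (*loxl2b* also). Without follicle-like cells the protease *mmp2* was at 4.94, the inhibitor *timp2a* was no longer called (0.47 instead of 2.70) and neither was the folding gene *p3h1* (0.47 instead of 1.35), while the other list calls of this comparison were kept. PTEC-like cells had 5 of 13 folding genes higher and 1 lower than DTEC-like cells (*p4ha3* 5.06 and *ctage5* 2.59 higher, *crtap* -1.32 lower), where 18.4% of all genes were higher and 19.9% lower. There 2 of 9 basement membrane partners were lower (*sparc* -3.37, *agrn* -1.37) and 5 were called with the block, 2 of 8 proteases and inhibitors were lower (*ctsk* -2.42, *timp2a* -1.75), both counts near the share of all genes, and of 2 cross-linking genes and 3 receptors 0 were called in edgeR, although 1 of each had an unadjusted p under 0.05, DESeq2 called 1 cross-linking gene and the block called the receptor *itgb1a*.

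VEC-like cells had 10 of 12 cross-linking genes higher than neutrophil-like cells and 0 lower (median 3.55, beside -0.10 over all genes, of which 18.3% were higher), with *loxl1* (10.34), *tll1* (8.23) and *tgm2b* (8.12) first. Of 10 basement membrane partners 7 were higher (*hspg2* 8.30, *lama4* 6.46) and *lama5* (-2.73) was lower. Of 15 folding genes 5 were higher and 3 lower, of 6 receptors 3 were higher (*ddr1* 5.99), of 10 proteases and inhibitors 6 were higher (*mmp15a* 8.55) and 3 lower, among them the neutrophil markers *mmp9* (-5.14) and *mmp13a* (-4.82), and the tested proteoglycan *bgnb* (8.36) was higher. The share of folding genes that were lower is about that of all genes, 19.7%. Macrophage-like cells had 4 of 12 folding genes higher and 3 lower than neutrophil-like cells, with *p3h1* (-5.03) lowest, where 36.7% of all genes were called and 19.7% were higher. There 5 of 10 basement membrane partners were higher (*hspg2* 5.30, *lamb1b* 5.19) and 1 lower, 4 of 8 proteases and inhibitors were higher (*ctsk* 9.18, *mmp14b* 5.94) and 4 lower, 1 of 6 receptors was higher (*itgb1a* 1.42) and 4 with the block, and of 5 cross-linking genes *loxl4* (3.06) was higher and *pcolcea* (-2.27) lower, with 4 called with the block and 1 without library 1. The shares of receptors and of cross-linking genes that were higher are about that of all genes.

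The 2 ceramide transfer protein genes followed another pattern. *col4a3bpb* had 16396 UMIs, more than any chain, and averaged 198 ± 90.1 CPM in VEC-like cells and 92.1 ± 3.22 in neutrophil-like cells, and *col4a3bpa* had 575 UMIs in all.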

How the data were processed

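The authors deposited 4 tables of raw UMI counts per gene and cell from a BD Rhapsody whole-transcriptome assay that counts 3′ ends. The submitters' processing notes name UMI-tools, Seurat 4.2 and the zebrafish build GRCz11. The sources used here do not state the counting strand, nor why 13 mitochondrial protein genes are listed in libraries 3 and 4 only. Of the 56 members, 28 matched the reference gene symbols and 54 matched a RefSeq gene table of another assembly, so no coordinates are given.

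Cells of all libraries were clustered with Seurat 5.3.0 (2000 variable genes without collagen and matrix genes, scaled within each library, 30 components, resolution 0.6). Clusters were named from markers (mean log2 ratio of at least 1 with a pseudocount of 10 CPM, at least 3 markers detected, check of the top 10 genes). Predicted doublets were kept; an alternative removed the 6% with the highest Scrublet scores (scanpy 1.11.5). Counts were summed per library and class (at least 3 cells) and tested with edgeR 4.0.16 (quasi-likelihood, TMM, default expression filter, no library term), adjusted by Benjamini-Hochberg over all genes tested and called at an adjusted p under 0.05. Standard errors were the log2 fold change over the square root of F. The test was also run on simulated counts, but the settings and outcome are not given here, so no weight rests on that run. Sums of a library pair its classes, and same-library deviations correlated at 0.394 to 0.773. A fit with the library as a block is therefore given where it changes the call of a chain or moves a list's count by over 1.5 times, and for some other genes. SEs and adjusted p-values given without mention of the block ignore this pairing. Shares of cells have exact 95% Clopper-Pearson intervals, and a class at 0 was given a floor of 3 counts. Other tools were R 4.3.3, DESeq2 1.42.0, Python 3.11.15, numpy 2.4.6, scipy 1.17.1 and matplotlib 3.10.9.

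Members and the 6 matrix gene lists (97 of 116 genes found) were chosen with earlier results of these data known. Named with values were the called members of each comparison, up to 12 by absolute log2 fold change, the member with the most UMIs for each collagen number, up to 5 members whose highest class was not stromal, and up to 4 called genes per list. Removal of cells with a shared barcode and of the *col10a1b* cell were alternatives chosen after the data were seen.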

Additional observations from a re-analysis of the deposited data

Results flagged for a closer look

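In groups of 4 libraries, 75 sets of values were checked for 1 library far from the others (its gap to the nearest, over the whole range, past Dixon's critical value), and 4 had one, where chance gives about 1 in 20. Erythroid-like cells of library 1 had 160.9 collagen CPM, against 26.0 to 46.3 in the others, and 1 cell held most of them. *col4a6* in RSC-like cells had 56.9 CPM in library 2, against 33.29 to 33.7 in the others. *col5a1* in DTEC-like cells had 5.51 CPM in library 3, against 0.653 to 1.16. *col6a4a* in neutrophil-like cells had 0.271 CPM in library 4, below 0.589 to 0.632 in the others.

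*col6a3*, abundant in RIC-like cells, was also counted in clusters that no comparison used. B cell-like cluster 20, led by *rag1*, *rag2* and *pax5*, had 81 UMIs, or 28.2, 22.3, 14.8 and 19.8 CPM in libraries 1 to 4. Unnamed cluster 9 had 98 UMIs (3.77, 5.09, 4.46 and 3.82 CPM) and unnamed cluster 14 had 63 UMIs.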

How the results depend on the processing

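No chain that passed the test changed direction under any alternative run. The count of chains called was 14 to 20 for RIC-like against VEC-like cells, 15 to 24 for RIC-like against RSC-like cells, 10 to 15 for VEC-like against neutrophil-like cells and 4 to 7 for PTEC-like against DTEC-like cells. For RSC-like against DTEC-like cells 4 chains were called, against 11 with no expression filter, 9 in libraries 1 and 2 alone and 7 in libraries 3 and 4 alone, and 4 to 6 when a library was left out. For macrophage-like against neutrophil-like cells 4 were called, against 7 with the replicate block, 8 in libraries 3 and 4 alone and 2 to 5 when a library was left out. The replicate block lost 0 calls of chains and list genes. It added 8 calls of chains, which are given beside the results. It also added 32 of list genes, which are given where they moved a list's count by over 1.5 times and for some other genes.

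The RIC-like collagen level of 8624 CPM was 4664 when genes were scaled over all libraries and 4517 with cells of at least 1000 UMIs, and the RSC-like level was 463 without follicle-like cells. No RSC-like cluster was named under those 2 settings or with doublets removed, so they gave no RSC-like value. Thinned to 1000 UMIs per cell, shares fell in each class. In RIC-like cells *col1a1a* was in 41.2%, *col1a2* in 47.4%, *col6a1* in 31.8%, *col6a3* in 43.1% and *col4a1* in 17.5%. In VEC-like cells *col4a1* was in 26.5% and *col4a2* in 29.2%. *col18a1a* was in 6.56% of RSC-like and 4.14% of DTEC-like cells, *col4a5* in 2.61% and *col14a1a* in 5.74% of PTEC-like cells, *col4a5* in 0.649% of macrophage-like cells, *col4a2* in 6.33% of thrombocyte-like cells and *col1a2* in 0.0995% of neutrophil-like cells. Of the refitted fold changes of called chains, 865 kept and 21 lost their call, all with the same direction: *col4a1* and *col4a2* in RIC-like over RSC-like cells, *col4a2* and *col18a1a* between tubule classes, *col6a4a* in libraries 3 and 4 alone (2.08, adjusted p = 0.13, edgeR) and *col5a2a*, *col18a1a* and *col15a1a* in macrophage-like cells. Of the chains given as not past the test, 8 fold changes turned sign in 14 refits, and 2 of these refits, both of *col4a2* in RSC-like over DTEC-like cells, passed the test. There *col4a2* was at -2.66 in libraries 3 and 4 alone, -1.93 without follicle-like cells and -1.14 to 0.82 when a library was left out, *col4a1* at -0.69 in libraries 3 and 4 alone, -0.46 without follicle-like cells and -0.20 to 1.26 when a library was left out, and *col18a1a* at -0.47 without follicle-like cells. In RIC-like over VEC-like cells *col27a1b* was at -0.57 scaled over all libraries and -0.61 with cells of at least 1000 UMIs, and *col4a1* at 0.021 and *col15a1a* at 0.14 in libraries 1 and 2 alone. *col12a1a* was at 0.30 in PTEC-like over DTEC-like cells with doublets removed, and *col1a2* at -0.051 in VEC-like over neutrophil-like cells with collagen and matrix genes kept in the clustering. In another 34 refits such a chain passed the test in its direction, among them *col15a1a* in RIC-like over VEC-like cells under 2 settings. The cause of these changes was not tested. With doublets removed the cells were also clustered again, and PTEC-like cells numbered 487 instead of 394 and DTEC-like cells 792 instead of 1124. Depth limits the low chains: a class at 0 UMIs allows up to 3 counts.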
